A study of Mus musculus with 2 samples.

Results

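Transcripts of 39 genes of the actin cytoskeleton were measured in the kidneys of mice fed adenine with and without HMPA. The genes encode myosins, tropomyosins, actin crosslinkers, focal adhesion proteins, monomer-binding and severing proteins, subunits of the Arp2/3 complex, capping proteins, and the proteins that tie actin to the cell membrane. They were chosen by name, as the non-control spots of the arrays that carry these gene symbols, and all 39 were among the 16698 genes measured. Each of the 39 was well above background in both conditions on both arrays.

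Male CD-1 mice were given the AIN-93G diet with adenine at 0.2% by weight (2 g per kg), either alone or with HMPA at 2% by weight, for 1 week. HMPA, a phenolic acid, is 3-(4-hydroxy-3-methoxyphenyl)propionic acid. Adenine in the diet crystallises in kidney tubules and injures them, which makes it a common model of chronic kidney disease. Both groups therefore carried the adenine insult, and no kidney from mice without adenine was on the arrays, so no ratio here is relative to a healthy kidney. The treatment protocol gives a starting age of 7 weeks, whereas the titles give 12 weeks and mention 5 mice, with no word on whether 5 is the number per diet or whether RNA was pooled. Both conditions were hybridised together on each of 2 dual-colour arrays, with adenine alone in Cy3 and HMPA in Cy5 on array 1 and the reverse on array 2. The arrays were treated as a dye swap of 1 RNA sample per condition, because the labels name no separate animals for them. No p-value can be computed from this design, and spread between animals could not be assessed. Ratios are log2 of HMPA over adenine alone, so a negative value is lower with HMPA, and ± gives how far either array lies from the mean of both. A gene was counted as lower or higher by a rule of size: a mean difference of at least 2-fold, with both arrays going the same way by 1.5-fold or more.

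Actin monomers assemble into filaments that are nucleated by the Arp2/3 complex or by formins, capped and severed by gelsolin-family proteins, coated by tropomyosins, and pulled by non-muscle myosin II. Monomers are held in reserve by thymosins and fed to growing ends by profilin. In the kidney, the same set of proteins serves different structures: the microvilli of the proximal tubule brush border, the foot processes of podocytes, the stress fibres of smooth muscle and activated fibroblasts, and the motile cortex of leukocytes.

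With HMPA, 19 of the 39 genes were lower by the rule and 0 were higher. Over all 16698 genes the shares were 7.72% lower and 6.64% higher. The roles differed within this total: the 4 tropomyosins were all lower, the thymosins Tmsb4x and Tmsb10 were among the lowest, and only 2 of the 6 Arpc genes of the Arp2/3 complex met the rule. A mean decrease of at least 4-fold was found for 6 members, Tmsb4x, Arpc1b, Tmsb10, Arpc3, Flna and Myh9, against 1.35% of all genes. The median over the 39 was −0.92, against −0.04 over all genes. Negative ratios were found for 36 of the 39, against 8997 of the 16698 genes. The 3 positive ratios belonged to Vil1, Myo5a and Rdx. On each array alone the median of the 39 was −0.83 (array 1) and −0.91 (array 2).

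**Figure D1:**
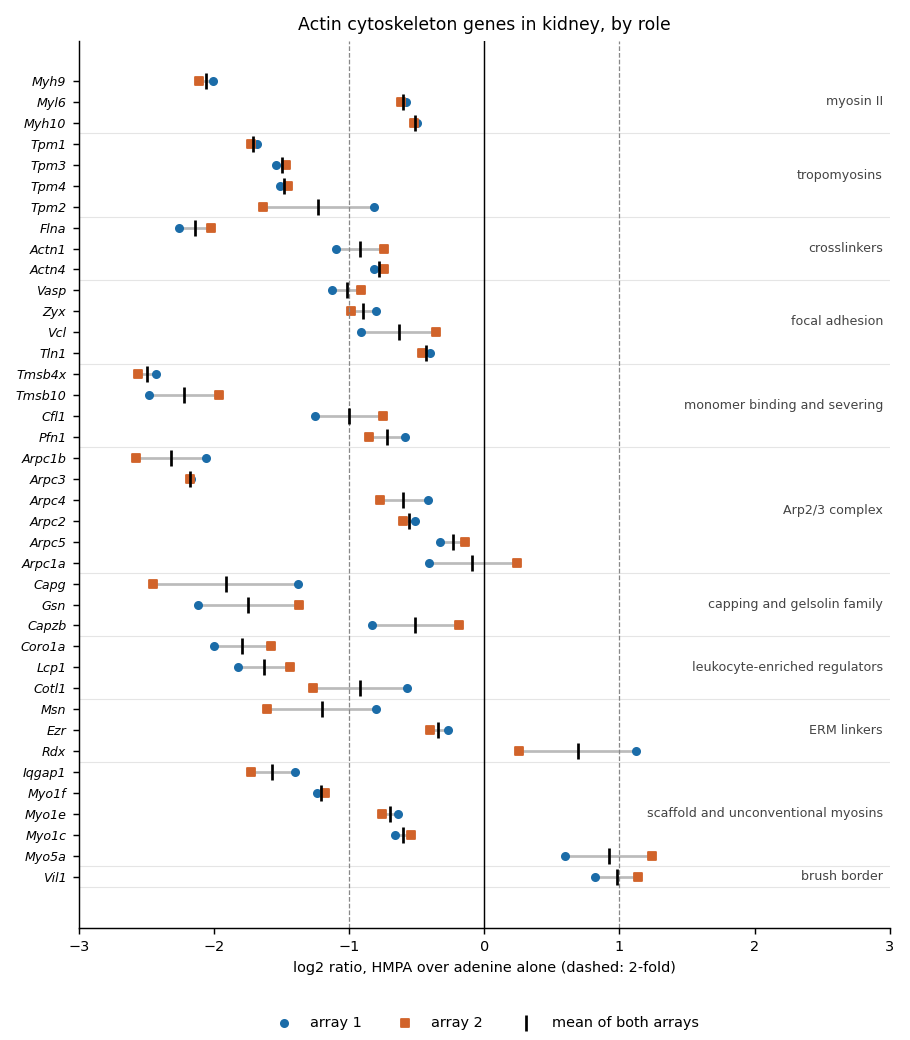
Log2 ratios (HMPA over adenine alone) of the 39 actin cytoskeleton genes, grouped by role, with both arrays and their mean shown for each gene and dashed lines at a 2-fold difference. The 4 tropomyosins lie below −1 on average, the 6 Arpc genes run from −0.09 to −2.32, and Vil1, Myo5a and Rdx are the genes above 0.

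The arrays gave the same sign for 38 of the 39 genes, 35 below 0 and 3 above. In those 38 genes the HMPA signals of both arrays lay on one side of both adenine signals. Arpc1a was the exception. These counts were not made over all genes, so they do not set the members apart from other genes. An array differed from the mean of both by a median of 0.13 among the 39 genes and 0.11 among all genes, and at most by 0.53, for Capg. As the arrays were treated as carrying the same RNA, these distances hold no information on mice.

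All 12 proximal tubule and all 8 distal nephron markers tried were measured. Nearly all markers tried for other cell types were measured too, so being measured does not test the label of kidney. The RNA carried other differences between the diets that run alongside these ratios. All 12 macrophage and myeloid markers were lower with HMPA (range −3.40 to −1.24, median −2.05), among them S100a9, Lyz2 and S100a8. Of 11 fibroblast and smooth muscle markers, 7 were lower (range −3.23 to 0.14, median −1.60), with Col1a1 at −3.23, Col3a1 at −2.82 and Tagln at −2.69. Of 12 proximal tubule markers, 11 were higher (range 0.69 to 3.90, median 2.45), with Kap at 3.90, Miox at 3.02 and Slc22a8 at 2.78. The first count was 10 of 12 with the probes of a gene averaged, and the last was 10 of 12 with median centring. The fibroblast and smooth muscle count changed too. Acta2 lost the rule with averaged probes (−0.99). Lum (−1.11) and Des (−1.37) met it with an offset of 10, and Cnn1 (−1.02) with median centring. Averaging probes also moved Col1a1 to −1.86, Col3a1 to −1.76 and Slc22a8 to 1.89. With Feature Extraction's ratio S100a8 was at −3.43. Acta2, Tagln, Myh11, Cnn1 and Des stand both among these fibroblast and smooth muscle markers and in the actin lists given further on. In whole kidney, fewer cells of a type and less RNA per cell cannot be told apart. The part of these markers in the ratios of the actin genes was not tested.

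Arrays measure each gene through 60-base probes, and the sequences below identify the transcripts on which the largest differences and the contrasts between related genes rest. Each line gives the first 30 of 60 bases of the probe, 5′ to 3′, as deposited. The first pair tells the 2 alternative Arpc1 subunits apart, the next 3 sequences belong to the lowest remaining small proteins, and the last 3 to the lowest motor, the lowest crosslinker and the highest gene.
Arpc1b: gaggctaagggctgctttgctaaatgtttc
Arpc1a: caaattttgcactactggcattgatggagc
Arpc3: tgagaaggtttttgaccctcagagtgataa
Tmsb4x: cgagcgccgccaatatgcactgtacattcc
Tmsb10: cgaccaaagagaccattgaacaggaaaaga
Myh9: gcagctgtcaccactacagtaagctggttt
Flna: catgtcttctttggttctgggaggtggaag
Vil1: caccaggaacatgggtttgctacgtgaagt
On mouse build mm9 the Arpc1b probe lies at chr5:145888791-145888850 and the Arpc1a probe at chr5:145867953-145869253, both on the plus strand of the same chromosome. The Arpc1a probe spans 1301 bases of genome and so crosses an intron, and the Arpc1b probe lies in 60 contiguous bases. Arpc3 is read at chr5:122855148-122855897 (plus strand), Tmsb4x at chrX:163645368-163645427 (minus), Tmsb10 at chr6:72907599-72907918 (minus), Myh9 at chr15:77591033-77591092 (minus), Flna at chrX:71468844-71468903 (minus) and Vil1 at chr1:74481962-74482021 (plus). No annotation of that build was used, so exon, coding part or UTR is not assigned to a probe. Of the 73 probes of the 39 genes, 15 cross an intron in this way. The Ezr probe, with a placement shorter than its sequence, was counted as not crossing. Of the 73, 0 list more than 1 RefSeq gene, and some list none, among them a kept Myh9 probe.

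Non-muscle myosin II is the motor of contraction. Myh9, the heavy chain of myosin IIA, had normalised log2 signals of 12.96 and 12.72 with HMPA on arrays 1 and 2, and 14.97 and 14.83 with adenine alone. Both HMPA signals lay below both adenine signals, a 4.17-fold lower level (−2.06 ± 0.05). Myh10, the heavy chain of myosin IIB, read 7.93 and 8.05 with HMPA against 8.43 and 8.57, which is 1.42-fold lower and did not meet the rule. The difference in log2 ratio, Myh9 minus Myh10, was −1.51 on array 1 and −1.59 on array 2. Myl6, an essential light chain shared by these motors, was 1.52-fold lower (−0.58 and −0.62) and did not meet the rule either.

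Tropomyosins are coiled coils that lie along the filament and govern which myosins and severing proteins reach it. All 4 genes met the rule as lower, with a median of −1.49. Tpm1 read 10.74 and 10.68 with HMPA against 12.42 and 12.41 with adenine alone, 3.26-fold lower. Tpm3 (12.27 and 12.22 against 13.80 and 13.69) was 2.84-fold lower, and Tpm4 (12.44 and 12.36 against 13.95 and 13.80) was 2.79-fold lower. In these 3 genes the arrays differed little, and every array gave a ratio between −1.73 and −1.45. Tpm2 was 2.34-fold lower, but its arrays were farther apart (−0.82 and −1.64), and array 1 alone would not have met the rule. Tpm3 lost the rule when its probes were averaged (−0.94), as described below.

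Crosslinkers and focal adhesion proteins join filaments to each other and to integrins. Flna, filamin A, which crosslinks filaments into networks, read 11.96 and 12.01 with HMPA against 14.23 and 14.03, 4.41-fold lower (−2.14 ± 0.12). The alpha-actinins, which bundle filaments, stayed short of the rule. Actn4, the isoform of podocytes and many other cells, was 1.72-fold lower (−0.82 and −0.74). Actn1 was 1.90-fold lower (−1.10 and −0.74) and met the rule with median centring (−1.25), with Feature Extraction's ratio (−1.22), with an offset of 10 (−1.16) and without background subtraction (−1.06).

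Among the focal adhesion genes, 1 of 4 met the rule. Vasp, which promotes filament elongation at adhesions, read 7.71 and 7.69 with HMPA against 8.84 and 8.60, 2.03-fold lower. It sat on the edge of the rule, and missed it with its probes averaged (−0.87) or on array 2 alone (−0.91). Zyx, zyxin, which recruits Vasp to adhesions, was 1.86-fold lower (−0.80 and −0.99). Vcl, vinculin, was 1.55-fold lower (−0.91 and −0.36), and Tln1, talin 1, which activates integrins, was 1.35-fold lower (−0.40 and −0.46). By their brightest probes all 4 had both HMPA signals below both adenine signals, a count not made over all genes. A further Vcl probe gave −0.28 on array 1 and 0.09 on array 2.

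The genes that bind monomers included the lowest of all 39. Tmsb4x, thymosin beta 4, which sequesters actin monomers, read 13.15 and 12.88 with HMPA against 15.58 and 15.44 with adenine alone. This is 5.64-fold lower (−2.50 ± 0.07). Tmsb10, thymosin beta 10, with the same biochemical role, read 10.40 and 10.51 against 12.87 and 12.47 and was 4.65-fold lower. A further Tmsb10 probe gave −2.24, close to the −2.22 of the brightest, while Tmsb4x had 1 probe. Pfn1, profilin 1, which exchanges nucleotide on monomers and delivers them to growing ends, was 1.65-fold lower (−0.59 and −0.85) and did not meet the rule. Cfl1, cofilin 1, which severs old filaments, was at its margin: 2.00-fold lower, with −1.25 on array 1 and −0.75 on array 2. It met the rule under 3 of the 10 other settings tried. These were array 1 alone and 2 changes of the filter on dim probes, which could not move any member.

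**Figure D2:**
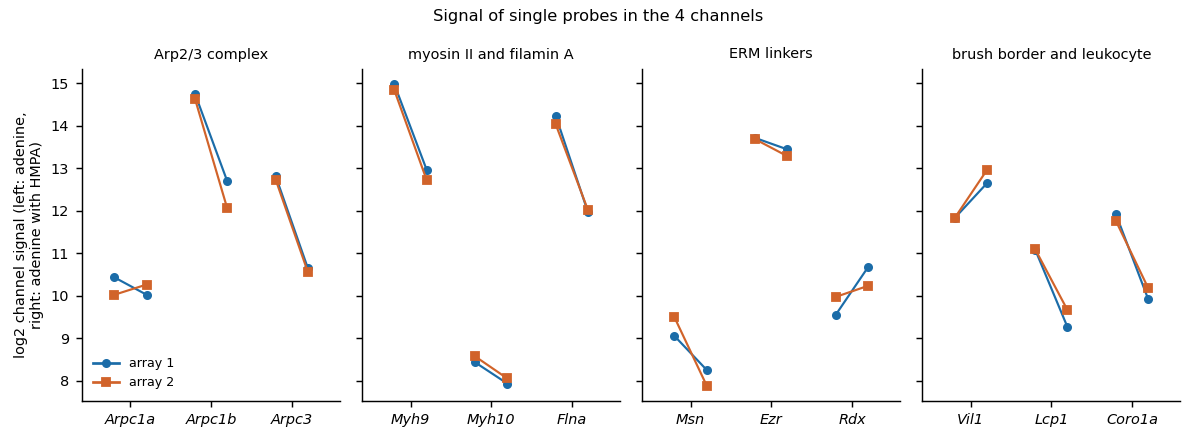
Normalised log2 signal (vertical axis) of the brightest probe of 12 genes, with adenine alone on the left and adenine with HMPA on the right of each pair and 1 line per array. Arpc1b, Arpc3, Flna and Myh9 drop on both arrays, the Arpc1a lines cross, and Vil1 climbs from 11.82 on both, with heights comparable within a gene and not between genes.

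The Arp2/3 complex nucleates branched filaments, and the 6 Arpc genes among the members ranged from −2.32 to −0.09. Arpc1b and Arpc1a encode alternative versions of the same subunit, Arpc1b being the form enriched in blood cells. Arpc1b read 12.69 and 12.05 with HMPA against 14.75 and 14.63, 4.99-fold lower (−2.32 ± 0.26). Arpc1a read 10.02 and 10.26 with HMPA against 10.43 and 10.02 with adenine alone, so its channels overlapped and its arrays gave opposite signs (−0.41 and 0.24). The log2 ratio of Arpc1b minus that of Arpc1a was −1.65 on array 1 and −2.81 on array 2.

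Arpc3, another subunit of the complex, was 4.52-fold lower (10.64 and 10.55 against 12.81 and 12.73), and a further probe for it gave −1.89. The remaining Arpc genes did not meet the rule: Arpc4 was 1.51-fold lower (−0.42 and −0.77), Arpc2 1.47-fold (−0.51 and −0.60) and Arpc5 1.18-fold (−0.33 and −0.14). The median over the 6 Arpc genes, of which Arpc1a and Arpc1b are forms of the same subunit, was −0.58, and the large decreases were those of Arpc1b and Arpc3.

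Capping and severing proteins end filaments. Gsn, gelsolin, read 11.18 and 11.41 with HMPA against 13.30 and 12.79, 3.36-fold lower. Capg, a gelsolin relative that caps without severing and is abundant in macrophages, read 10.14 and 9.47 against 11.52 and 11.92, 3.77-fold lower, with the arrays at −1.38 and −2.45. Capzb, a subunit of the general capping protein, was 1.43-fold lower (−0.83 and −0.19) and did not meet the rule.

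Several members are enriched in leukocytes, and these were compared with the brush border members. Coro1a, coronin 1A, a regulator of Arp2/3 in leukocytes, read 9.92 and 10.18 with HMPA against 11.92 and 11.76, 3.46-fold lower. Lcp1, the leukocyte plastin (L-plastin) that bundles filaments, read 9.26 and 9.66 against 11.08 and 11.09, 3.09-fold lower. Further probes for these genes gave −1.48 for Coro1a and −1.14 for Lcp1. Myo1f, a class I myosin of immune cells, was 2.31-fold lower (7.08 and 7.06 against 8.32 and 8.24).

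Cotl1, a coactosin-like protein that binds filaments, was 1.89-fold lower (13.75 and 13.22 against 14.32 and 14.48), with −0.57 on array 1 and −1.27 on array 2, and did not meet the rule. With Capg and Arpc1b, these make 6 leukocyte members, of which 5 were lower and whose median was −1.71 (−1.60 and −1.51 on the arrays). The other 31 members, outside the leukocyte and brush border groups, held 14 lower genes and had a median of −0.90. The leukocyte members were named from the known distribution of their proteins, but when earlier results of these arrays were known. Msn (−1.20), also strong in leukocytes, was counted among the other 31. The contrast of medians therefore depends on this choice and is no independent evidence. The macrophage and myeloid markers were lower in the same RNA, and their part in these ratios was not tested.

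The brush border members were Vil1, villin 1, which bundles and severs filaments in microvilli, and Ezr, ezrin, which ties them to the membrane. Vil1 read 12.64 and 12.95 with HMPA against 11.82 and 11.82 with adenine alone, a 1.97-fold higher level (0.98 ± 0.16). It was just short of the rule and met it with an offset of 10 (1.04), without background subtraction (1.01), with Feature Extraction's ratio (1.08), with both probes averaged (1.01) and on array 2 alone (1.14), but not with median centring (0.87) or on array 1 alone (0.82). Ezr was 1.26-fold lower (13.44 and 13.28 against 13.71 and 13.68). Its only probe is 60 bases long, but its listed placement covers 40 bases of genome. The median of these 2 genes was 0.32, and their ratios pointed in opposite directions.

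Ezrin, moesin and radixin form a single family of membrane linkers, and their transcripts differed from each other. Msn, moesin, the form that dominates in leukocytes and endothelium, read 8.25 and 7.88 with HMPA against 9.05 and 9.49, 2.30-fold lower. Rdx, radixin, read 10.67 and 10.23 against 9.55 and 9.97, 1.61-fold higher, and did not meet the rule. In log2 ratio, Msn minus Rdx was −1.91 and −1.87 on the arrays, and Msn minus Ezr was −0.52 and −1.21. Msn did not meet the rule on array 1 alone (−0.80) or with its 3 probes averaged (−0.81).

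The remaining members are a scaffold and unconventional myosins. Iqgap1, a scaffold that crosslinks filaments, read 10.44 and 10.09 with HMPA against 11.85 and 11.82, 2.96-fold lower. A dimmer Iqgap1 probe gave −0.89 and did not meet the rule. Myo1c (1.52-fold lower) and Myo1e (1.62-fold lower), class I myosins that link membrane to actin, did not meet the rule, although Myo1e did with median centring (−1.01). Myo5a, a myosin that carries cargo along filaments, read 9.95 and 10.16 against 9.35 and 8.92, 1.89-fold higher (0.60 and 1.24). Its further probe gave 1.26, and the gene met the rule as higher with Feature Extraction's ratio (1.02) and with both probes averaged (1.09), and on array 2 alone (1.24) but not on array 1 alone (0.60).

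Probes of a gene gave the same direction but not always the same size. Of the 73 probes, 67 were kept, and among the 23 members with more than 1 kept probe 0 had probes of opposite sign. By the rule, 26 of the 67 kept probes were lower and 2 were higher. The shares over all 25138 kept probes were not computed. The dimmest probes lay near 0, but a dimmer probe did not always give a smaller ratio. Myo5a gave 1.26 at a signal of 7.54 and 0.92 at 9.59, and Myo1f gave −1.21 at 7.67. In other genes the ratio shrank with the signal. Flna was −2.14 by its brightest probe (mean log2 signal 13.05) and −1.82 by a probe at 8.59, but −0.05 by a probe at 6.35, which lies 5′ of the brightest probe at chrX:71482091-71482150. Myh9 gave −2.06 at a signal of 13.89 and −0.06 at 6.22, but its dimmer probe lists no RefSeq gene, unlike the brighter. Tpm3 gave −1.50 at 13.00 and −0.38 at 7.32. Tpm1, whose transcripts are spliced in many forms, gave −1.71 and −1.80 with probes at 11.56 and 10.03, and −0.43 with a probe at 6.60. The offset added to every signal pulls dim probes toward 0, and probes of the same gene can also read different transcript forms. Their parts in these differences were not tested. With all kept probes averaged, Flna was at −1.34 and Myh9 at −1.06, and both still met the rule.

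**Figure D3:**
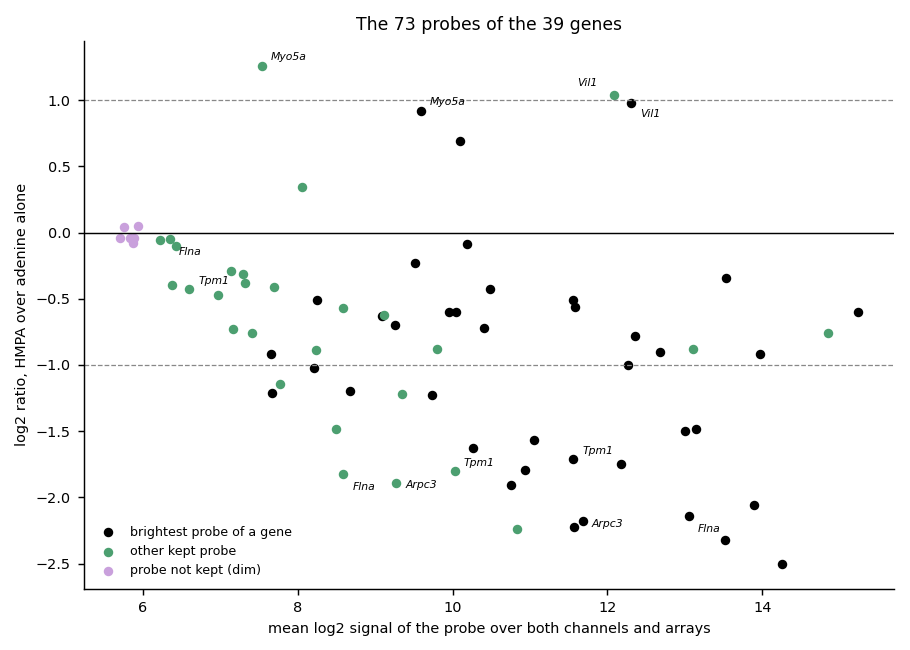
Log2 ratio of each of the 73 probes of the 39 genes against its mean log2 signal over both channels and arrays, with the brightest probe of each gene, other kept probes and dim probes marked. Probes with signals below 6 lie close to 0. The probes of Tmsb4x, Arpc1b and Flna below −2 have signals above 11, and a Tmsb10 probe at −2.24 has a signal of 10.83.

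Other genes of the actin system were read from lists drawn up by function, and 134 of their 138 genes were measured. Of these, 32 (23.9%) were lower and 2 (1.49%) were higher, with a median of −0.52. The lists are no independent evidence, since they were drawn up when results of these arrays were known. Among the 6 actins, 4 were lower: the smooth muscle actins Acta2 (−1.56) and Actg2 (−1.17), the cardiac Actc1 (−1.17) and the cytoplasmic Actb (−1.06). The actins are closely related, and whether a probe for one also binds another was not tested. Acta2 missed the rule with its probes averaged (−0.99) and Actg2 on array 1 alone (−0.98).

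A further list held the subunits Actr2 (0.04), Actr3 (−0.91) and Arpc5l (0.38) of the Arp2/3 complex, together with proteins that switch it on or stabilise its branches. These 3 subunits are named after their values were seen, and none met the rule. Among its 17 measured genes, the rule called 4 lower and 0 higher, and the median was −0.29. The lower genes were Hcls1 (−1.97), a cortactin relative of blood cells, Nckap1l (−1.88), the blood-cell subunit of the WAVE complex, Was (−1.43), the Wiskott-Aldrich protein, and its partner Wipf1 (−1.18). Among formins and Ena/VASP proteins, 3 of 12 were lower, Evl (−1.77), Fmnl3 (−1.57) and Inf2 (−1.48).

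Genes of stress fibres and smooth muscle were lower in 7 of 19 cases. They included Tagln (−2.69), transgelin, Cald1 (−2.13), caldesmon, Cnn2 (−1.85), a calponin, and Nexn (−1.30). Adhesion adaptors gave 4 of 24, with the LIM-domain genes Pdlim7 (−1.66), Pdlim1 (−1.65) and Csrp1 (−1.58) and the tensin Tns3 (−1.32). Bundlers and cortex proteins gave 6 of 15, with Marcksl1 (−1.84), Marcks (−1.80), Myo9b (−1.37) and Pls3 (−1.26). With probes averaged, Pdlim7 (−0.99) and Myo9b (−0.75) no longer met the rule. Of 21 genes for severing, capping and monomer turnover, 1 was lower, Scin (−1.64), a relative of gelsolin.

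Microvillus genes stood mostly on the other side of 0, but few met the rule. Of 15 measured, 2 were higher (13.3%, against 6.64% of all genes) and 0 lower. Ratios were positive for 13 of the 15, against 7701 of the 16698 genes, and the median was 0.45. Cobl (0.01) and Myo1a (0.02) lay near 0 with arrays of opposite sign, while Espn (−0.15) and Myo7a (−0.58) were negative. The higher genes were Pdzk1 (1.81), a scaffold for apical transporters, and Cdhr2 (1.75), a cadherin that links microvillus tips, which was at 2.62 with Feature Extraction's ratio. With median centring the median of this list was 0.16, a scaling under which all genes had a median of −0.22 in place of −0.04. The 39 members went from −0.92 to −1.11, so their distance from all genes was −0.88 and −0.89.

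**Figure D4:**
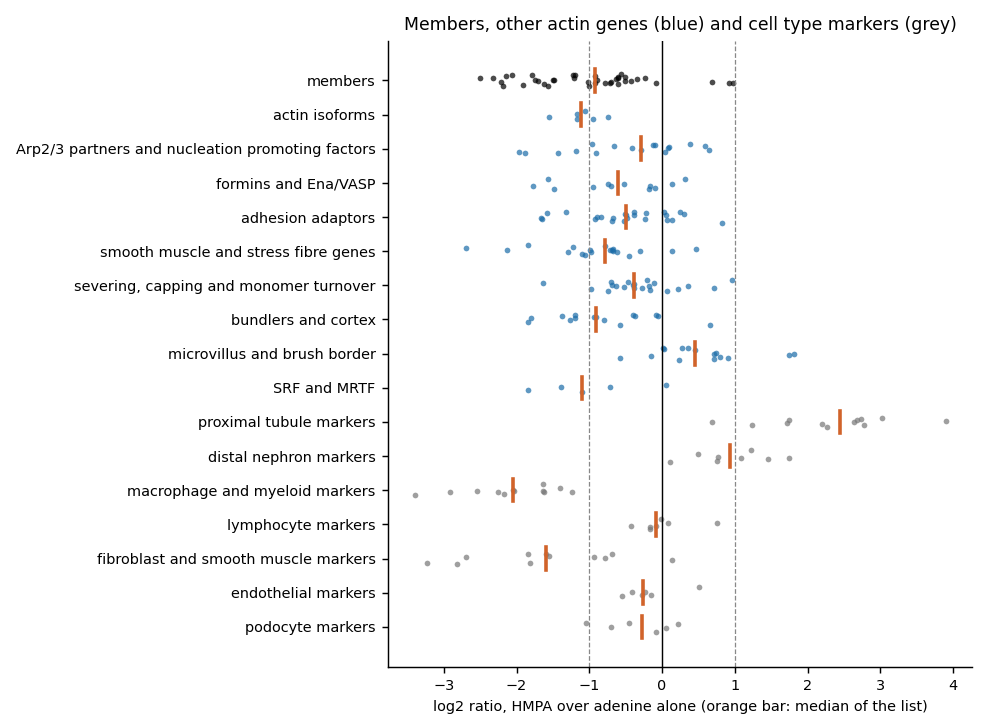
Log2 ratios (HMPA over adenine alone) of the 39 members (black), the other actin lists (blue) and the marker lists (grey), 1 point per gene, with an orange bar at each median and dashed lines at 2-fold. The macrophage and myeloid list has a median of −2.05 and the proximal tubule list 2.45. The microvillus list has a median of 0.45, and the other actin lists have medians between −0.29 and −1.11.

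SRF, which binds the CArG box, and its actin-sensing coactivators of the MRTF family drive many cytoskeletal genes. Of 5 genes tied to this pathway, 3 were lower, Fhl2 (−1.85), Ccn1 (−1.39) and Mrtfa (−1.10), the last of which missed the rule on array 1 alone (−0.98). Promoters from RefSeq (build GRCm38.p6), from 250 bases before to 50 after the gene start, were found for 38 of the 39 members. A CArG box on either strand was present in 5 of the 38 (13.2%), against 1.81% of 27025 genes with such promoters. The 5 windows of 60 bases are shown, 5′ to 3′ on the gene's strand with the box in capitals, because they show which members carry it.
Vil1: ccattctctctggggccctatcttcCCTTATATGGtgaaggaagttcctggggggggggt
Myl6: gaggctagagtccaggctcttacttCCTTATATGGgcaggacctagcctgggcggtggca
Vcl: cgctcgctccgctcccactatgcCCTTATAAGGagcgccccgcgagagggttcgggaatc
Myo1e: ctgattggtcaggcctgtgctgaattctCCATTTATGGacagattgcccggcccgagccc
Arpc4: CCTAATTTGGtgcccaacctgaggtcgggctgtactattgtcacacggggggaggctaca
These windows lie at chr1:74409286-74409345 (plus strand) for Vil1, chr10:128493025-128493084 (minus) for Myl6, chr14:20929148-20929207 (plus) for Vcl, chr9:70207290-70207349 (plus) for Myo1e and chr6:113377863-113377922 (plus) for Arpc4. The box starts 73 bases before the gene start in Vil1, 50 in Myl6, 227 in Vcl, 32 in Myo1e and 250 in Arpc4. None of these 5 genes met the rule: their ratios were 0.98 for Vil1, −0.60 for Myl6, −0.63 for Vcl, −0.70 for Myo1e and −0.60 for Arpc4. The AP-1 motif TGANTCA, also on either strand, was present in 4 of the 38 (10.5%), Zyx, Actn4, Myo1c and Ezr, against 8.97% of all genes with promoters. All 19 members that were lower have a promoter entry, and 0 of the 19 hold either motif in this window. With shares of 1.81% and 8.97% over all genes, few matches would be found in any 19 genes. The 0 is therefore not read as a trait of the lower members. A match here is a description of letters and not a binding site, and boxes outside the window were not searched.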

How the data were processed

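Kidney RNA of 2 conditions was hybridised on 2 dual-colour Agilent arrays with the dyes swapped. Per the file headers, the authors' scans were quantified by Feature Extraction 12.2.0.7, although version 9.5 stands in the submitters' processing notes. The deposited signal and background columns are intensity values, per the file headers, with no normalization. The deposited ratio column and value table hold the log10 ratio of Cy5 to Cy3, corrected by Feature Extraction, not turned for the swap, and the table matched the scanner ratios within 0.00499. Arrays had 43379 gene spots, none saturated, and 57.9% to 67.9% of spots were well above background in a channel. Signal over background and the number of arrays limit the precision.

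In R 4.3.3 with limma 3.58.1, background was corrected by normexp (offset 50), control and unreliable spots had weight 0, and loess was applied within each array. Channel signals came from loess followed by Aquantile scaling. Spots of a probe were averaged, and probes were kept where 1 condition was well above background on both arrays (25138 of 41174). The kept probe with the highest mean signal stood for its gene. Tables and figures used Python 3.11.15 with pandas 2.3.3, numpy 2.4.6 and matplotlib 3.10.9. Current names came from RefSeq through each probe's accession. The procedure was tested on simulated data.

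All 39 members are named. Each actin list contributes up to 4 genes that met the rule with the largest ratios above background in all 4 channels, and each marker list up to 3, or 2 where none met it. The members, lists and alternatives were chosen with earlier results of these data known. The 10 alternatives changed the offset, background, scaling, ratio source, filter, probe choice or left out an array. Protein sequences and an annotation of build mm9 were not used here. A further list of actin-related genes is not reported here.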

Additional observations from a re-analysis of the deposited data

How the results depend on the processing

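Across 10 alternatives, 28 of the 39 genes kept their call, and 14 of the 19 lower genes stayed lower under all of them. Arpc1a alone had a change of sign, on array 2. The 2 alternatives that changed the filter on dim probes could not move a member, because all 39 were above background in every channel. The value table nearly repeats Feature Extraction's ratio, so fewer than 10 of the alternatives bear on these counts. The count of lower members ran from 15 to 20. The count of higher members, 0 in the report, was 1 with an offset of 10 or without background subtraction, and 2 with Feature Extraction's ratio, the deposited value table or averaged probes. Leaving out replicate 1 or 2 (an array) gave 2 and 1 higher members. The median of the members was −0.98 without background subtraction and −1.11 with median centring, and from −0.91 to −0.83 with an array left out. The median of the leukocyte members was −1.94 with median centring, −1.77 with Feature Extraction's ratio or the value table, −1.51 with averaged probes, and from −1.60 to −1.51 with an array left out. The median of the brush border members was 0.40 with an offset of 10 and 0.48 with Feature Extraction's ratio or the value table. Among all genes, the count lower was 1289, and 1973 with median centring, 2461 with Feature Extraction's ratio and 2459 with the value table. The count higher was 1109, and 2043 and 2040 with the last pair, while median centring gave 749, so that higher genes made up 27.5% in place of 46.2% of those that met the rule. The cause of these shifts was not tested. Ratios of dim probes are compressed, and with 1 RNA sample per condition no alternative addresses the spread between mice.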

Other observations

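The marker lists not described so far were those of endothelium, podocytes, lymphocytes and the distal nephron. Of 6 endothelial markers, 0 met the rule of size in either direction (range −0.55 to 0.51, median −0.26), with Emcn at −0.55 and Kdr at 0.51. Of 6 podocyte markers, 1 was lower, Synpo at −1.04, which encodes synaptopodin, a partner of alpha-actinin 4 in foot processes, and the median was −0.28. Synpo missed the rule with its probes averaged (−0.49) and on array 1 alone (−0.94). Lymphocyte markers gave 0 of 7 lower or higher (range −0.43 to 0.76, median −0.09), with Cd8a at 0.76 and Cd3g at −0.43. Cd8a met the rule as higher with an offset of 10 (1.16), with Feature Extraction's ratio (1.49) and on array 1 alone (1.04). Of 8 distal nephron markers, 4 were higher (range 0.11 to 1.74, median 0.93), among them Atp6v1g3 at 1.74, Calb1 at 1.45 and Slc12a1 at 1.22, which missed the rule with its probes averaged (0.66). Aqp2, also higher, missed it with median centring (0.77) and on array 1 alone (0.91). Hsd11b2 met it with an offset of 10 (1.22) and without background subtraction (1.02). With Feature Extraction's ratio both Hsd11b2 (1.67) and Scnn1g (1.00) met it. No test was possible for these counts, which come from a rule of size on 1 RNA sample per condition.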
